A study of Rattus norvegicus with 12 samples.

Results

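LGI proteins and the ADAM proteins that bind them were followed in rat hippocampal neurons after 48 h with drugs that, when applied, block firing or drive burst firing. The members were the 4 LGI genes (Lgi1, Lgi2, Lgi3 and Lgi4) and the 3 ADAM receptor genes (Adam11, Adam22 and Adam23), taken as every array probe whose gene name in the scanner files was a member, with the ending that marks a predicted or mapped gene removed. This gave 8 of the 41012 probes, for 6 of the 7 genes, among 35716 distinct gene names. Lgi1 and Lgi3 had 2 probes each, and Lgi2, Lgi4, Adam11 and Adam23 had 1 each. Adam22, the receptor best known for Lgi1, had no probe under its name and was not analysed here.

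The cells were dissociated hippocampal neurons of Sprague-Dawley rat embryos (E18.5), grown at high density and treated at 10 to 13 days in vitro. Vehicle cultures (CTL, 4 samples) received 0.1% DMSO according to the labels, whereas the study's methods name water. TTX cultures (4 samples) received 0.5 to 1 μM tetrodotoxin, which blocks voltage-gated sodium channels and thereby action potentials. BC cultures (4 samples) received 20 μM bicuculline, which blocks GABA-A receptors and drives burst firing. Each RNA sample was hybridized to 1 Agilent whole rat genome array with a single dye. The study counts culture dishes or RNA samples as n without saying whether the array samples were separate cultures. The p-values therefore set the difference between group means only against the spread of samples within groups, which may be technical spread.

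LGI proteins are secreted glycoproteins with leucine-rich repeats at one end and a beta-propeller (EPTP) domain at the other. Adam11, Adam22 and Adam23 belong to the ADAM family of membrane metalloproteases but lack protease activity and serve as receptors for LGI proteins. Lgi1 bridges Adam22 and Adam23 at excitatory synapses, where Adam22 binds PSD-95 and so reaches AMPA receptors, and it is also found with Kv1 potassium channels on axons. Mutations of Lgi1 cause an inherited lateral temporal lobe epilepsy, antibodies against it cause limbic encephalitis, and a truncated Lgi2 causes a juvenile epilepsy in dogs. Lgi4 is best known from Schwann cells, where it acts in myelination.

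The array reads each gene through single stretches of 60 bases, shown here by 1 probe each for Lgi1, Lgi2 and Adam23, whose levels differed between groups by the call rule, and for Adam11, so that the measured part of each transcript can be seen. All are written 5′ to 3′ as the scanner files give them, with no part marked in capitals.
Lgi1 probe 2: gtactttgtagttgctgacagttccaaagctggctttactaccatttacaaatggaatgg
Lgi2: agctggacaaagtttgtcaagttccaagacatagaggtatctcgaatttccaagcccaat
Adam11: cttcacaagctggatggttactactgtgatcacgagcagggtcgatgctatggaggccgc
Adam23: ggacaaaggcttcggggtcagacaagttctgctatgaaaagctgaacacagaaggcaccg
In the rn4 build named in the files, the second, dimmer Lgi1 probe lay at chr1:242633499-242633558. The Lgi2 probe lay at chr14:63211314-63211373. The Adam11 probe was placed over chr10:91894621-91894782 and the Adam23 probe over chr9:62220372-62222888, spans of 162 and 2517 bases for probes of 60 bases, so that the genome holds a gap inside each of them. Exons and untranslated regions were not assigned, because no annotation of this build was used. Across the 26 pairs of probes of different members, the longest run of bases in common on either strand was 5 to 9 bases, and none of the 4 probes shown shared more than 14 bases with a probe of another gene.

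All 8 probes were well above background on all 12 arrays, and no spot of theirs was marked as an outlier. The values below are the processed signals, quantile-normalized over the 12 arrays and given as log2, and differences are on the same scale. A gene was called when its brightest probe passed a Benjamini-Hochberg FDR of 0.05 over all probes in limma and differed by 1.5-fold or more upward (0.667 or less downward). Per array, 74.1 to 78.1% of probes were well above background. The neuron markers (6 of 6) and astrocyte markers (9 of 9) were well above background on all arrays, whereas 2 of the 7 microglia markers, AIF1 and ITGAM, were not so on any. Each of 4 slides carried a CTL, a TTX and a BC array. The slides were split into a pair of sets (slides 1 and 3 against slides 2 and 4) that was known from earlier results of these data. The correlations that follow therefore describe this split and do not test it. With each group centered on its mean, arrays from different groups correlated over all probes at 0.20 to 0.41 within a set and at −0.39 to −0.20 between sets, so differences are also given within slides.

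Lgi1 transcripts fell with TTX and rose with BC, and Lgi2 transcripts fell with TTX by a larger amount. In TTX against CTL, 2 of the 6 measured genes were called, Lgi1 and Lgi2, each lower, against 4.17% of all genes called in this comparison (2.69% lower, 1.48% higher). In BC against CTL, 1 of the 6 was called, Lgi1, which was higher, against 3.6% of all genes (2.14% higher, 1.47% lower). In TTX against BC, 3 of the 6 were called, Lgi1, Lgi2 and Adam23, each lower with TTX, against 10.9% of all genes (6.19% lower, 4.68% higher). As the dishes hold several cell types, fewer cells of a type and less RNA per cell cannot be told apart in these values. The TTX and BC comparisons share the CTL arrays.

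**Figure D1:**
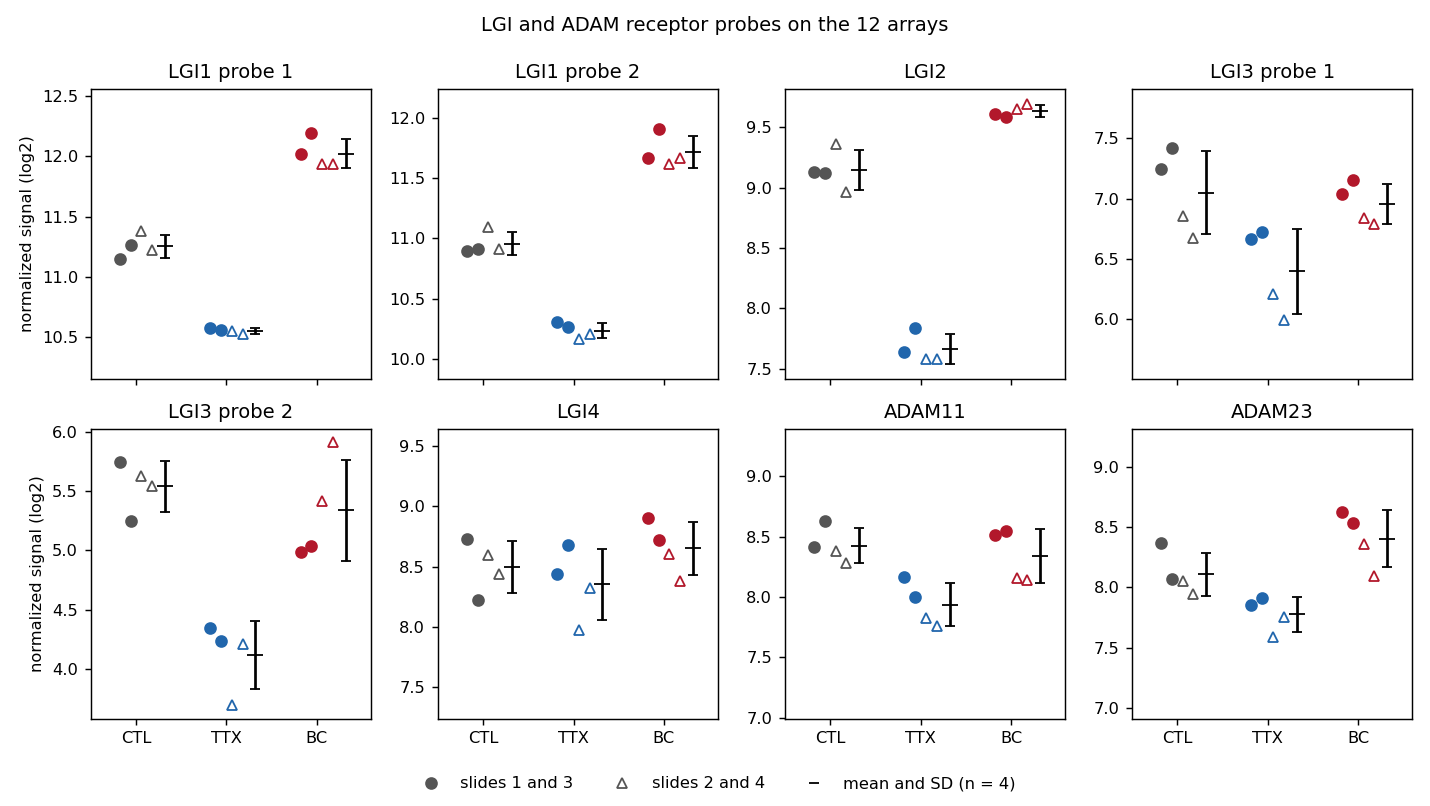
Normalized signal (log2, vertical axis) of the 8 probes on each array, by group, with filled circles for slides 1 and 3, open triangles for slides 2 and 4, and the group mean with its SD (n = 4 arrays) to the right. The TTX arrays lie below and the BC arrays above all CTL arrays for both Lgi1 probes and for Lgi2, whereas the groups overlap for Lgi4; every panel spans at least 2.4 log2 units, and levels are not comparable between panels.

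The brighter Lgi1 probe read 11.15, 11.27, 11.38 and 11.22 on the 4 CTL arrays. It read 10.56, 10.58, 10.52 and 10.55 on the TTX arrays and 11.94, 11.93, 12.02 and 12.19 on the BC arrays. The 3 groups did not overlap, with TTX lowest and BC highest, and the TTX arrays were the tightest of the 3 (SD 0.0222, against 0.0959 in CTL and 0.12 in BC). Lgi1 was lower by 0.70 on the log2 scale with TTX (difference −0.70, SE 0.0713, limma adjusted p = 0.00019), which left 61.5% of the CTL level. With BC it was higher by 0.77 (SE 0.0713, limma adjusted p = 0.000135), or 170.1% of the CTL level. Between TTX and BC the difference was −1.47 (95% interval −1.62 to −1.31), so that BC cultures held 2.76 times as much signal as TTX cultures.

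The other Lgi1 probe, with its sequence printed above, gave nearly the same differences. It read 10.90, 10.91, 11.10 and 10.91 in CTL, 10.26, 10.31, 10.20 and 10.17 in TTX, and 11.66, 11.61, 11.67 and 11.91 in BC, again without overlap. Its differences were −0.72 (SE 0.0776) with TTX, 0.76 with BC and −1.48 for TTX against BC, and it passed the call rule in each comparison (limma adjusted p = 0.00027, 0.000224 and 5.17e-07). Over the 12 arrays the Lgi1 probes correlated at r = 0.998, and at 0.898 after the group means were removed, which describes how closely they followed each other from array to array within a group.

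Within each of the 4 slides the TTX array was below and the BC array above the CTL array for Lgi1. The within-slide differences of the brighter probe ran from −0.83 to −0.57 for TTX and from 0.56 to 0.92 for BC. By slide set, the mean TTX difference was −0.64 on slides 1 and 3 and −0.76 on slides 2 and 4, and the mean BC difference was 0.90 and 0.63. When the 2 CTL, TTX or BC arrays in a set were averaged before the fit, which leaves 2 values per group, the differences kept their size but Lgi1 no longer passed, with limma adjusted p = 0.0654 for TTX and 0.0804 for BC. In that fit no probe on the array was called for BC against CTL (9133 probes at an unadjusted p under 0.05).

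Lgi2, an LGI family member less studied than Lgi1, showed the largest TTX difference among the brightest probes of the 6 genes. It read 9.13, 9.12, 9.36 and 8.96 in CTL. The TTX arrays read 7.84, 7.64, 7.58 and 7.58, and the BC arrays 9.69, 9.65, 9.61 and 9.58. All TTX arrays lay far below all CTL arrays, and the BC arrays all lay above the CTL arrays by a narrower gap. Lgi2 was lower by 1.49 with TTX (difference −1.49, SE 0.0895, limma adjusted p = 6.67e-06), at 35.7% of the CTL level. With BC the difference was 0.49 (SE 0.0895, limma adjusted p = 0.00701), which passed the FDR but, at 1.40-fold, not the fold change the call rule asks for. TTX against BC gave −1.97 (SE 0.0895, limma adjusted p = 2.08e-07), the widest separation of any member, at 25.5% of the BC level. Within slides, the TTX difference ran from −1.78 to −1.28 and the BC difference from 0.28 to 0.73.

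**Figure D2:**
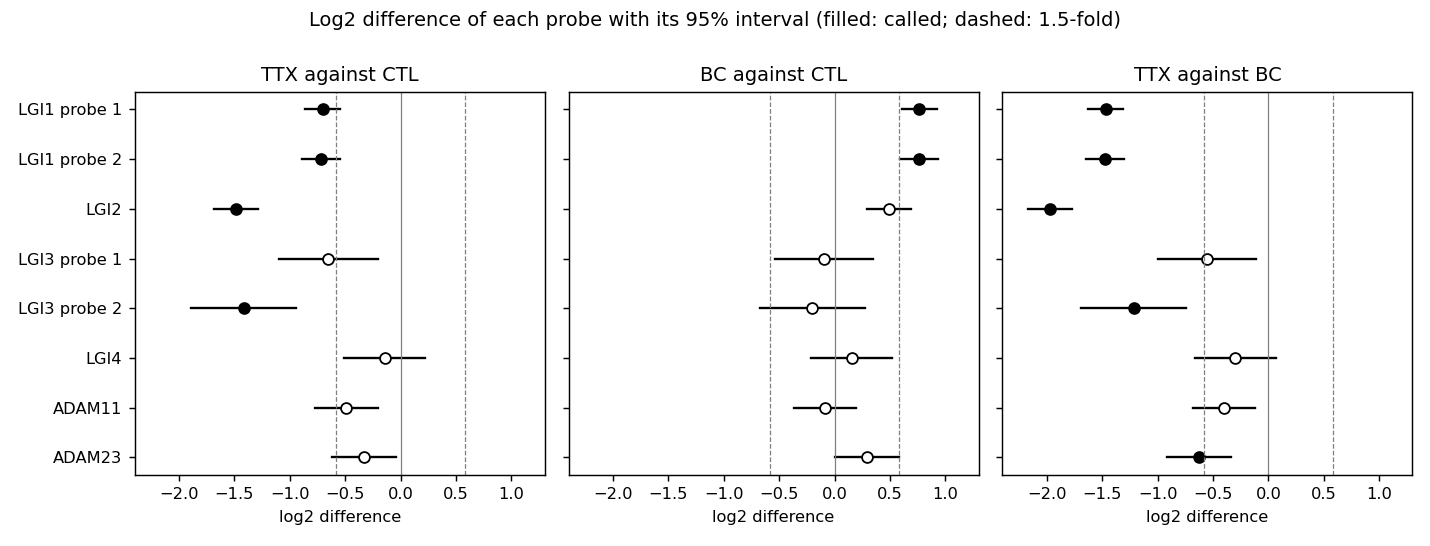
Log2 difference (horizontal axis) of each probe in the 3 comparisons, with its 95% interval from limma, filled where the probe was called and with dashed lines at a 1.5-fold change. Lgi1, Lgi2 and the dimmer Lgi3 probe are called lower with TTX than with CTL, and only the Lgi1 probes are called for BC against CTL.

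Lgi3, a neuronal LGI protein, was read by 2 probes that shared their direction in all 3 comparisons but differed in passing the call rule. The probes lay at chr15:50937227-50937286 and chr15:50936372-50936431 of rn4, 855 bases apart from start to start. The brighter probe read 7.25, 7.42, 6.86 and 6.68 in CTL, 6.72, 6.67, 6.00 and 6.21 in TTX, and 6.79, 6.84, 7.04 and 7.15 in BC. TTX overlapped CTL, and the difference of −0.65 (95% interval −1.10 to −0.21) was not called (limma adjusted p = 0.0694). The arrays of slides 1 and 3 were higher than those of slides 2 and 4 in every group, and within each set both TTX arrays were below both CTL arrays. Within slides the TTX difference ran from −0.70 to −0.58. With the slide as a block it passed the call rule (limma adjusted p = 0.0018), as it also did without CTL replicate 4, where the difference was −0.78, but with arrays averaged per slide set and the set as a block it did not (limma adjusted p = 0.0845). Over the 13 other settings the TTX difference was as small as −0.41, under the fold limit. BC against CTL was −0.10 (95% interval −0.54 to 0.35).

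The dimmer Lgi3 probe read 5.74, 5.25, 5.63 and 5.54 in CTL, 4.24, 4.34, 4.21 and 3.70 in TTX, and 5.91, 5.41, 4.99 and 5.04 in BC. TTX lay below both other groups without overlap, and BC overlapped CTL. By this probe Lgi3 was lower with TTX (difference −1.42, SE 0.214, limma adjusted p = 0.00202) and lower with TTX than with BC (difference −1.22, limma adjusted p = 0.00183). The size rested on the background correction, as the deposited log2 values, which rank as spot signals with no background removed, gave −0.52 and −0.42 for the same comparisons. These sizes were below the fold change that a call needs, and with arrays averaged per slide set this probe did not pass either (limma adjusted p = 0.0995 against CTL and 0.0661 against BC).

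Lgi4, known for its part in myelin formation, was not called in any comparison. It read 8.72, 8.23, 8.60 and 8.44 in CTL, 8.68, 8.44, 8.33 and 7.97 in TTX, and 8.38, 8.60, 8.91 and 8.72 in BC, so all groups overlapped. The difference was −0.14 (95% interval −0.51 to 0.22) with TTX and 0.16 (95% interval −0.21 to 0.52) with BC, and the intervals do not show that the levels were equal. Within slides, TTX was below CTL on 3 slides and above it on 1, by 0.45. The Lgi4 probe, at chr1:86112898-86112957 of rn4, shared 47 bases, read on the opposite strand, with a probe named AI058424 after an expressed sequence tag, and that probe was at no array well above background.

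Of the ADAM receptors, Adam23 differed between the TTX and BC cultures by the call rule and Adam11 did not. Adam11, a neuronal receptor of the family, read 8.41, 8.63, 8.38 and 8.28 in CTL, 8.00, 8.16, 7.76 and 7.83 in TTX, and 8.14, 8.15, 8.51 and 8.54 in BC. All TTX arrays were below all CTL arrays, and BC overlapped both other groups. The TTX difference of −0.49 (SE 0.128, limma adjusted p = 0.0358) passed the FDR but reached only 1.40-fold, so Adam11 was not called. Against BC, the TTX difference was −0.40 (SE 0.128, limma adjusted p = 0.0426), also under the fold limit, and BC against CTL was −0.09 (95% interval −0.37 to 0.19). The FDR was not passed in every fit. Over the 13 other settings the limma adjusted p of the TTX differences reached up to 0.105 against CTL and 0.101 against BC. With 1 array left out it reached up to 0.0978 and 0.114. Within slides, TTX was below CTL on all 4 slides, by differences from −0.63 to −0.25.

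Adam23, which binds Lgi1 on the presynaptic side, read 8.36, 8.07, 8.05 and 7.94 in CTL. It read 7.91, 7.85, 7.75 and 7.59 in TTX and 8.09, 8.36, 8.63 and 8.53 in BC. TTX lay just below CTL without overlap, BC overlapped CTL, and the TTX and BC arrays did not overlap. TTX against BC gave −0.63 (SE 0.13, limma adjusted p = 0.00492), at 64.7% of the BC level. Against CTL, neither the TTX difference of −0.33 (95% interval −0.62 to −0.04, limma adjusted p = 0.158) nor the BC difference of 0.30 (95% interval 0.01 to 0.58, limma adjusted p = 0.243) passed. On all 4 slides the TTX array was below and the BC array above the CTL array. The size for TTX against BC lay close to the fold limit, and it fell below it with normexp background correction (−0.50), without background correction (−0.50), in the deposited log2 values (−0.51), and without TTX replicate 4 (−0.56), BC replicate 3 (−0.55) or BC replicate 4 (−0.58), while the limma adjusted p stayed between 0.000315 and 0.0231 over the 13 other settings and the 12 fits that each left out 1 array.

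**Figure D3:**
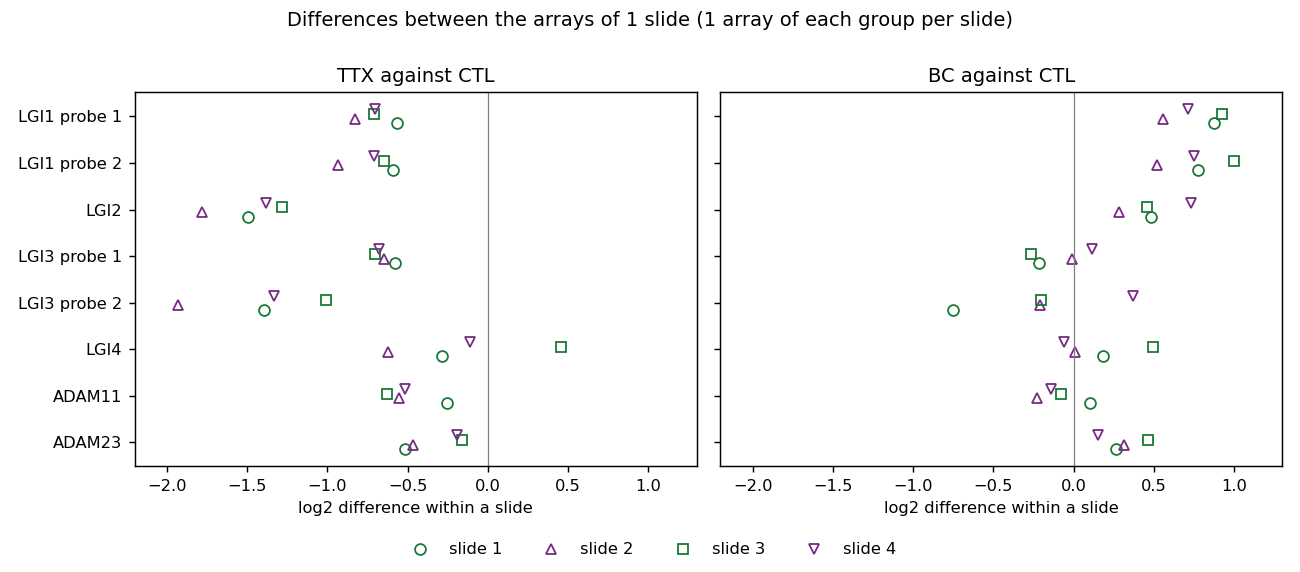
Log2 difference (horizontal axis) between the TTX or BC array and the CTL array of the same slide for each probe, with 1 symbol per slide and colors for the pair of slide sets. Lgi1 and Lgi2 lie on 1 side of 0 on all 4 slides in either comparison, Adam23 also does, and Lgi4 has slides on both sides of 0.

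The order of the groups was TTX, CTL, BC from lowest to highest mean for Lgi1, Lgi2, Lgi4 and Adam23. For Lgi1 and Lgi2 each neighboring pair in this order was separated without overlap. The share of all genes with such an order or separation was not counted, so neither is read as a trait of the members. For Adam23 the CTL arrays differed by the test from neither neighbor, and for Lgi4 no neighbors differed beyond their spread. For Lgi3 and Adam11 the order was TTX, BC, CTL, and BC did not differ from CTL beyond the spread.

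Upstream sequence was at hand for 3 of the 7 members, and the 250 bases before the start of Lgi1 and Lgi2 are shown because both genes were called lower with TTX. They come from RefSeq in the GRCr8 build, and capitals mark E-box matches (CANNTG, which reads the same on both strands).
Lgi1: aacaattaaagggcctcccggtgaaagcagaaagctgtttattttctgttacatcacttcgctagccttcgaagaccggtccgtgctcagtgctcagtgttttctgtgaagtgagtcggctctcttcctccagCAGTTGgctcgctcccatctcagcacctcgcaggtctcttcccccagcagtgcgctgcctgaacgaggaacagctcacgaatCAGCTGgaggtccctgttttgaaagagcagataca
Lgi2: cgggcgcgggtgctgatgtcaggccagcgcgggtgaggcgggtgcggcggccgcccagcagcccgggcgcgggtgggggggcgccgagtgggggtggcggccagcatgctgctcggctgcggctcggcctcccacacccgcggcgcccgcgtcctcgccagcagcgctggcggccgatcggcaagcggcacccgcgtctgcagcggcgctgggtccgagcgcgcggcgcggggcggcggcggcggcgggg
The windows lie at chr1:245455441-245455690 and chr14:62628496-62628745, both on the plus strand. The Lgi1 window held 52.8% G and C and 11 CG pairs, and the Lgi2 window 83.2% and 44, where the medians over all 33469 windows of this length were 51.2% and 5. Lgi1 had E-box matches starting 117 and 35 bases before the start, and Lgi2 had none, while 65.5% of all windows held at least 1. On either strand, neither window held the cAMP response element TGACGTCA (1.59% of all windows), its core TGACG, which lies inside it (18.2%), the AP-1 motif TGANTCA (6.34%) or the EGR motif GCGNGGGCG (4.29%). A match describes these letters and not a bound site, and the lack of one says only that the letters are not in this window.

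The partners of the LGI and ADAM proteins were followed as lists. The axonal Kv1 complex, with which Lgi1 is found, held pore subunits, beta subunits and the adhesion protein CNTN2, and 9 of its 10 genes were measured. With TTX, 2 of the 9 were lower and 1 was higher, where 2.69% and 1.48% of all genes were (median −0.17, against 0.01 over all genes). With BC, 2 were higher, where 2.14% of all genes were (median −0.08, against −0.01). Between TTX and BC, 1 was higher and 4 were lower, where 4.68% and 6.19% of all genes were (median −0.12). KCNA4, a Kv1 pore subunit of inactivating currents, fell by 1.07 with TTX (difference −1.07, SE 0.0729, limma adjusted p = 1.55e-05) and rose by 0.78 with BC (SE 0.0729, limma adjusted p = 0.000135). KCNA1, a pore subunit whose mutations cause episodic ataxia, rose by 0.82 with BC (SE 0.0856, limma adjusted p = 0.000265), and its TTX difference of −0.42 (limma adjusted p = 0.0102) stayed under the fold limit. The other KCNA1 probe was called higher with BC at 0.59 (SE 0.126, limma adjusted p = 0.0150), but its TTX difference of −0.24 did not pass the FDR (limma adjusted p = 0.304). KCNAB3, a beta subunit, fell with TTX (difference −1.11, SE 0.162, limma adjusted p = 0.00169), though the size was −0.56 with normexp background correction. CNTN2, an axonal adhesion protein that gathers Kv1 channels, moved the other way, up by 0.62 with TTX (SE 0.0621, limma adjusted p = 0.000174). With arrays averaged per slide set, the TTX calls of CNTN2 (limma adjusted p = 0.0629) and KCNAB3 (limma adjusted p = 0.0593) were lost and that of KCNA4 was not, and no BC call of any list remained, as no probe was called.

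The synaptic partners held the PSD-95 family of scaffolds, the AMPA receptor subunits, their TARP subunits and a Nogo receptor, and all 13 genes were measured. With TTX 1 of the 13 was lower (median 0.08), where 2.69% of all genes were. With BC 0 of 13 were called by limma (median −0.09, with 3 at an unadjusted p under 0.05), where 3.6% of all genes were. The gene called was CACNG3, a TARP subunit, at −0.75 (SE 0.0875, limma adjusted p = 0.00042) with TTX and −0.67 against BC, and the call against CTL was lost with arrays averaged per slide set (limma adjusted p = 0.0591). GRIA4, an AMPA receptor subunit, was counted by its brighter probe, which was not called (0.17 with TTX), but its other probe was called lower with TTX at −0.77 (SE 0.0652, limma adjusted p = 5.82e-05) and against BC at −0.66 (SE 0.0652, limma adjusted p = 3.66e-05). Both GRIA4 probes were well above background on all 12 arrays, so the direction for this gene depended on the probe. DLG4, which encodes PSD-95, showed 0.09 with TTX (SE 0.0826) and −0.06 with BC, neither called. DLG4, the partner of Adam22, and GRIA4 were named after their values were seen.

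Other ADAM genes, which include active proteases, had 16 of 19 members measured, of which 8 were well above background on all 12 arrays and 6 on none. With TTX, 0 of 16 were called by limma (median 0.10, with 3 at an unadjusted p under 0.05), where 4.17% of all genes were. With BC, 1 was higher and 1 lower (median 0.08), where 2.14% and 1.47% of all genes were. The one that was lower was ADAM15 (difference −0.77, SE 0.169, limma adjusted p = 0.0179). This call was lost with only CTL and BC in the fit, and without CTL replicate 1, CTL replicate 2, BC replicate 3 or BC replicate 4, with a limma adjusted p of at most 0.0571 over the fits that left out 1 array. Between TTX and BC, 2 were higher, ADAM15 at 0.89 (SE 0.169) and ADAM1A at 0.77 (SE 0.0765), and 2 were lower, ADAM9 at −0.92 (SE 0.109) and ADAM2. Of all genes, 4.68% were higher and 6.19% lower in that comparison. ADAM2 was also the gene called higher with BC, but none of the 12 arrays read it well above background, and no fold is given.

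Other neuronal proteins with leucine-rich repeats, many of them synaptic adhesion proteins, had 23 of 32 members measured. With TTX 1 was lower (median −0.01), where 2.69% of all genes were, and with BC 1 was lower (median −0.12), where 1.47% were. FLRT2 was the one lower with TTX (difference −0.62, SE 0.131, limma adjusted p = 0.0131), though at −0.35 in the deposited log2 values, and FLRT3, a ligand of latrophilins, the one lower with BC (difference −0.75, SE 0.0826, limma adjusted p = 0.000331). In TTX against BC, 3 were higher and 1 lower, where 4.68% and 6.19% of all genes were, with FLRT3 at 1.04 and LRRN2 at 0.69. SLITRK6, also called there, was well above background on only 2 arrays, those of 2 TTX samples, and its bound gave no fold above 1. LRRC4 was counted by its brighter probe, which was not called (0.03 with BC and −0.17 for TTX against BC). Its other probe was called lower with BC at −0.90 (SE 0.214, limma adjusted p = 0.0262) and higher with TTX than with BC at 1.05 (SE 0.214, limma adjusted p = 0.00448). Both LRRC4 probes were well above background on all 12 arrays, and the gene was named after its values were seen.

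**Figure D4:**
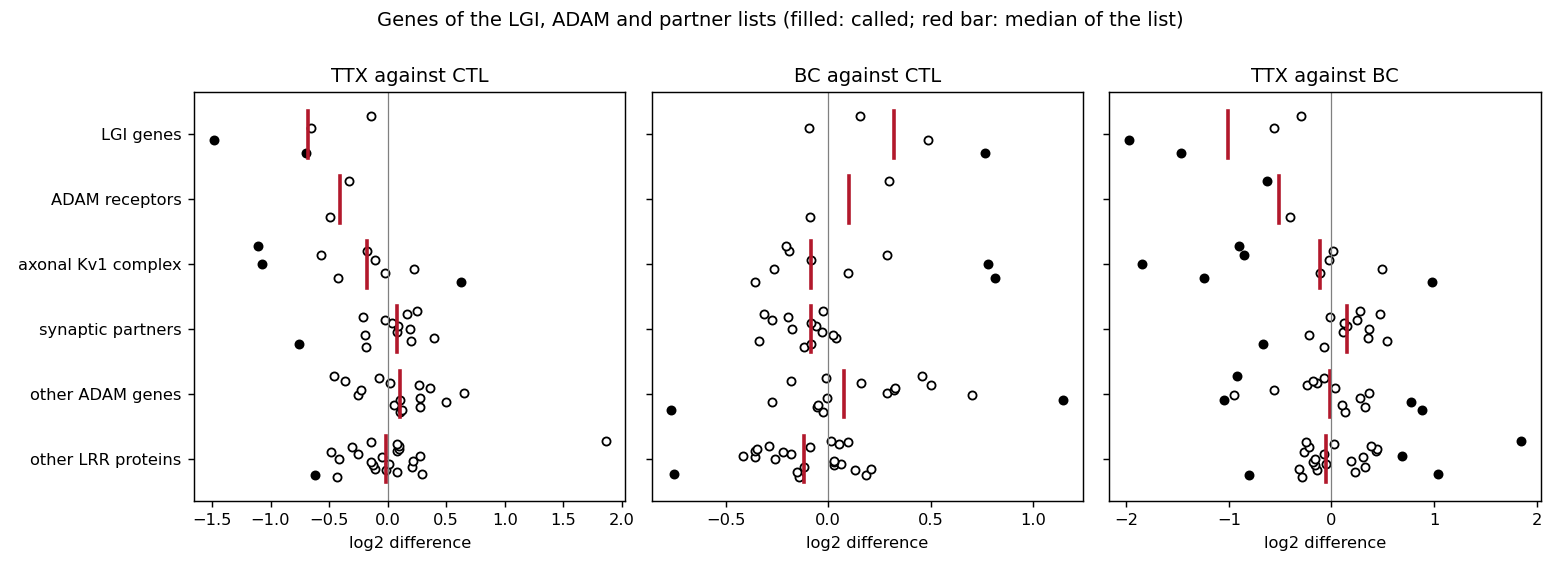
Log2 difference (horizontal axis) of each measured gene of the LGI, ADAM receptor and partner lists in the 3 comparisons, 1 circle per gene and filled where called, with a red bar at the median of the list. In TTX against BC the medians are −1.01 for the LGI genes and −0.51 for the ADAM receptors, and those of the other lists lie between −0.12 and 0.15.

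Genes with the pattern most like that of a called member were taken by Pearson's r over the 12 arrays, among 11448 named genes well above background on all arrays. These values describe likeness only, since the arrays share 3 groups. For the brighter Lgi1 probe they were GREM1, a secreted BMP antagonist (r = 0.994), DIPK1A (r = 0.994) and AMIGO2, an adhesion protein with leucine-rich repeats (r = 0.994). AMIGO2 differed by −1.51 with TTX and by 1.36 with BC, and GREM1 by −1.36 and 1.20. The second Lgi1 probe gave POLB, a DNA repair polymerase, PANK1 and CD93 (r = 0.992, 0.991 and 0.991), so neither probe's leading genes were those of the other.

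For Lgi2 the most alike were GIPR, the receptor of an incretin hormone (r = 0.997), CRHBP, which binds corticotropin-releasing hormone (r = 0.994), and INPP4B, a phosphoinositide phosphatase (r = 0.994). CRHBP differed by −4.49 with TTX and by 1.06 with BC, and GIPR by −2.21 and 0.75. For the dimmer Lgi3 probe they were OLFM3, KCTD9 and SAT1 (r = 0.958, 0.945 and 0.942), and for Adam23 NDUFA13-PS1, BOLA3 and GHDC (r = 0.978, 0.975 and 0.97). Between members, Lgi1 and Lgi2 correlated at r = 0.941 over the arrays, but at 0.217 after the group means were removed. Adam11 and the brighter Lgi3 probe kept a correlation of 0.83 after that step, as did Lgi4 and Adam23. That step leaves the difference between slide sets in place. Slides 1 and 3 averaged higher than slides 2 and 4 in every group for Adam11, Adam23 and the brighter Lgi3 probe, and for Lgi4 with TTX and BC but not in CTL. These correlations therefore cannot be read apart from the slide sets.

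Many markers of GABAergic interneurons were lower with TTX, as Lgi1 and Lgi2 were. All 14 were well above background on all arrays, and with TTX 8 were lower and 1, CALB2, which encodes calretinin, was higher. Over 25 settings, which include leaving out each array, 6 to 9 were lower with TTX. Of all genes, 2.69% were lower and 1.48% higher with TTX. Their summed normalized signal was 137128 to 147026 on the TTX arrays, 317270 to 370634 on the CTL arrays and 417365 to 477470 on the BC arrays. With BC 2 were higher and 1, again CALB2, was lower (median 0.12), where 2.14% and 1.47% of all genes were. A sum weighs the brightest genes most. Glutamatergic neuron markers (5 of 6 measured) had sums of 34132 to 37750 in TTX, 25991 to 31417 in CTL and 19440 to 24234 in BC. With TTX 1 of the 5 was higher, the vesicular glutamate transporter gene SLC17A6 at 0.59, and 0 were called with normexp, median signals, the deposited log2 values or arrays averaged per slide set. With BC 0 of 5 were called by limma (median −0.23, with 2 at an unadjusted p under 0.05).

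Vascular and fibroblast markers (10 of 11 measured) had sums of 8732 to 10108 in TTX, 11938 to 14838 in CTL and 19422 to 26204 in BC. With TTX 2 of them, DCN and LUM, were lower, and with BC 3, DCN, LUM and CLDN5, were higher, while PECAM1, a defining endothelial marker, was at no array well above background. The list median was 0.01 with TTX (from −0.98 to 0.44) and 0.26 with BC (from −0.48 to 1.67). Markers of this list thus lay on both sides of 0 in either comparison. Of all genes, 4.17% were called with TTX (2.69% lower) and 3.6% with BC (2.14% higher). Neuron markers summed to 278448 to 316779 in CTL, 291157 to 313678 in TTX and 255123 to 270595 in BC, with 0 of 6 called by limma in either comparison with CTL (3 for TTX and 1 for BC at an unadjusted p under 0.05). Astrocyte markers overlapped between all groups, with sums from 106398 to 153182. Oligodendrocyte lineage markers (11 of 11 measured) summed to 32611 to 51941 in CTL, 44403 to 71186 in TTX and 38467 to 47117 in BC, and microglia markers to 458 to 520, 351 to 432 and 382 to 454. With TTX 1 of the 11 oligodendrocyte lineage markers was called higher and 1 lower, where 1.48% and 2.69% of all genes were. Their median was 0.14, with 5 at an unadjusted p under 0.05, and with normexp 0 were called lower. With BC 0 of these 11 were called by limma. The part that interneuron, glutamatergic or vascular markers play in the LGI and ADAM differences was not tested. The marker genes named here were picked after their values were seen.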

How the data were processed

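Per the labels and the study's methods, RNA of 12 samples was labeled with 1 dye, hybridized to Agilent arrays and read with Feature Extraction 9.5.1.1. The deposited scanner files give a processed intensity per spot, which the authors' scanner software had background-subtracted. The authors also deposited log2 values per probe, already quantile-normalized, with medians of about 7.37, and these served as an alternative only.

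Here log2 of the processed intensity was quantile-normalized over the 12 arrays with control and outlier spots left out, and each probe had a single spot. The sequence and position of the brighter Lgi1 probe are not reported here. One mean per group was fitted in limma 3.58.1 (R 4.3.3), with empirical Bayes and Benjamini-Hochberg adjustment over all probes with an estimate. These were 41009 of the 41012 probes for TTX against CTL and for TTX against BC, and 41007 for BC against CTL. A call needed an FDR of 0.05 together with a 1.5-fold rise or a fall to 0.667. A gene stood for its brightest probe, and levels were not compared between probes. From 13 to 40 spots per array were outliers, and the median processed signal per array was 105 to 148. Precision is limited by the number of arrays. Names were given to probes through a rat gene table by accession (10813), symbol (5133) or synonym (3455), and 21611 kept the name in the file. The genes named from lists were at most 4 called genes per list, those with the largest differences, and those most like a member were the first 3 by correlation. The members and the lists were chosen with earlier results of these data known, and so were the slide sets.

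CTL, TTX and BC arrays share replicate numbers. Deviations from the group means correlated at 0.28 to 0.38 between same-numbered CTL and TTX arrays, which lie in the same slide set, at −0.35 to −0.24 for CTL and BC, and at −0.38 to −0.28 for TTX and BC, so the numbers were not taken to pair all groups. The alternatives tried were other background corrections, normalizations, filters, blocks, test settings and leaving out each array.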

Additional observations from a re-analysis of the deposited data

Results flagged for a closer look

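For the second Lgi1 probe, CTL replicate 3 stood apart from the other CTL arrays, at 11.10 where the nearest of them read 10.91. Its gap made up 0.923 of the range of the group. It was the 1 value that stood apart among 24 sets of 4 arrays checked, and chance marks about 1 in 20 such sets. The array was still below all BC arrays and above all TTX arrays for this probe.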

How the results depend on the processing

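No member difference past the call rule changed its direction under any alternative tried. The Lgi1 difference for TTX against CTL ranged from −0.74 to −0.66 and that of Lgi2 from −1.55 to −1.25. With the arrays of a slide set averaged and the set as a block, 1 gene was called for TTX (Lgi2) and 0 for BC against CTL, as Lgi1 reached −0.70 (limma adjusted p = 0.0654) and 0.77 (limma adjusted p = 0.0804). Without a fold limit, 2 genes were called for BC, with Lgi2 at 0.49, and Adam11 was called at −0.49 for TTX against CTL and −0.40 against BC. The brighter Lgi3 probe was called for TTX against CTL with 75th percentile normalization (−0.63), with probes well above background only (−0.65), and with the slide or the slide set as a block (−0.65 each), but not with arrays averaged per set (limma adjusted p = 0.0845). Over the 13 other settings its difference was as small as −0.41 against CTL and −0.33 against BC, both under the fold limit. The limma adjusted p against CTL reached up to 0.145. The mean of both Lgi3 probes gave −1.03 against CTL and −0.89 against BC, both called. Leaving out 1 array moved Lgi3 between −0.78 and −0.52 against CTL and between −0.66 and −0.42 against BC, where it was called without CTL replicate 4 and without TTX replicate 1, respectively. For TTX against BC, Adam23 was not called with normexp (−0.50), median signals (−0.50) or the deposited log2 values (−0.51), and leaving out 1 array gave −0.73 to −0.55. The counts of called genes, leaving out 1 array, were 2 to 3 for TTX against CTL, 1 for BC against CTL and 2 to 4 for TTX against BC.

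With the replicate block, 2, 1 and 3 genes were called in the TTX, BC and TTX against BC comparisons, the counts without it, and Lgi1 stood at −0.70 for TTX. Of the 12 arrays, 2 correlated best with an array of their own number. Weak signal over background limited the dimmer Lgi3 probe, and 4 arrays per group limit the precision of all values.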
